A study of Mus musculus with 384 samples.

Results

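*Nr3c1* encodes the glucocorticoid receptor (GR), and it was followed here in all 12 region labels of a targeted RNA sequencing study of the mouse brain. The gene was selected by its name, as 1 of the 69 assays in the authors' table. This rule used no measured value, though earlier results of these data were known. The GR is a ligand-activated transcription factor. It rests in the cytoplasm in a complex with Hsp90 and co-chaperones such as Fkbp5, moves to the nucleus once a glucocorticoid is bound, and acts there on target genes that include *Fkbp5* itself. In the hippocampus, the paraventricular nucleus and the pituitary it takes part in the negative feedback that ends a hormonal stress response.

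The assay of *Nr3c1* was designed on transcript NM_008173. In the mouse build GRCm38 the gene occupies positions 39410545 to 39519421 of chromosome 18 and is read from the minus strand (GENCODE M21 annotation); the submitters' processing notes name the same build, as mm10. Values are normalized reads, that is, reads counted at the assay divided by a size factor of the library.

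The samples were micropunches from frozen brains of 32 male Balb/c mice. Each mouse was to give 12 libraries, and 380 of the 384 labelled samples had values. According to the labels, mice were MS or Co by status and inject or naive by injection, which gave 4 label groups (Co naive, Co inject, MS naive and MS inject) of 8 mice each. The labels spell out neither these terms nor an injected agent. Every label states an age of postnatal day 9, whereas the methods describe adult mice that had been reared with limited nesting material or with early handling and later housed with a female or defeated. Neither source pairs the label groups with those 4 conditions, so the groups carry their label names here. All mice were male and of 1 strain. The methods describe no group without an early manipulation, and whether the label groups hold one is not known.

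The region labels were AMY (amygdala), BNST (bed nucleus of the stria terminalis), CER (cerebellum), PFC (prefrontal cortex), PVN (paraventricular nucleus), Pit, and the dorsal and ventral (d and v) CA1, CA3 and DG (dentate gyrus) of the hippocampus. Pit appears in the labels where the methods list the nucleus accumbens. None of the 37 marker genes listed for these tissues and their cell types had an assay (0 of 37), so the labels could not be checked against markers. Libraries had been prepared on 4 plates of 3 regions each. Which regions shared a plate is not given in the sources used here, so plate and region cannot be told apart.

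Libraries held 12898 to 261007 reads with a median of 139846, and 8 of them were under 50000 reads. *Nr3c1* took 0.284% of all reads. It was detected in every library, with 7 to 1217 reads (median 310), and 5 libraries had fewer than 50 reads of it. Within 9 of the labels, libraries stood apart by another gene. Among those labelled CER, dCA3 or vCA3, *Ociad2* was under 1300 in 32 libraries, termed *Ociad2*-low (8, 8 and 16, respectively), and over 1300 in the other 64, termed *Ociad2*-high, with no value between 843 and 1750. Among those labelled Pit, dDG or vDG, *Anxa2*, the gene of a membrane-binding annexin, was over 1000 in 31 libraries, termed *Anxa2*-high (16, 8 and 7), and under 1000 in 64, termed *Anxa2*-low, with no value between 298 and 1901. Among those labelled dCA1, PVN or vCA1, *Ociad2* was under 1600 in 30 libraries (7, 7 and 16) and over 1600 in 64. This gap was narrower, from 1095 to 1734 in dCA1, from 1492 to 2054 in PVN and from 1500 to 2278 in vCA1. Each of these 3 sets is about as large as 1 region label (up to 32 libraries). Whether region or mouse labels had been exchanged between libraries was not tested. Each value for these 9 labels is thus one of the libraries so labelled, and the main results on them are given with and without the sets. Comparisons by mouse rest on the mouse labels in the same way.

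*Nr3c1* was highest in the libraries labelled Pit and in both dentate gyrus labels and lowest in PFC, BNST and AMY. The highest and the lowest region median differed 1.98-fold. Pit ranged from 277 to 831 normalized reads with a median of 456. The dDG libraries ranged from 242 to 716 with a median of 419, and the vDG libraries from 185 to 797 with a median of 380. In Pit, 31 of 32 libraries exceeded the mean of their own mouse, as did 26 of 32 in dDG and 23 of 31 in vDG.

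The CA fields held the middle of the order. The vCA3 libraries ranged from 183 to 554 with a median of 377. Those of dCA1 ranged from 173 to 747 with a median of 339, and those of vCA1 from 92.7 to 521 with a median of 268. In dCA3 the range was 149 to 685 and the median 264. The dorsal median was above the ventral one in CA1 and DG and below it in CA3.

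Outside the hippocampus, PVN, the site of the neurons that start the hormonal stress response, ranged from 176 to 558 with a median of 327. CER ranged from 159 to 753 with a median of 266. AMY ranged from 12.5 to 480 with a median of 256. BNST followed with 114 to 497 and a median of 238, and PFC with 24.6 to 333 and a median of 231. In PFC, only 3 of 32 libraries exceeded the mean of their own mouse, against 4 of 31 in BNST and 6 of 32 in AMY. All 12 ranges overlapped. In such bulk samples, fewer cells with the transcript and less of it per cell cannot be told apart.

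**Figure D1:**
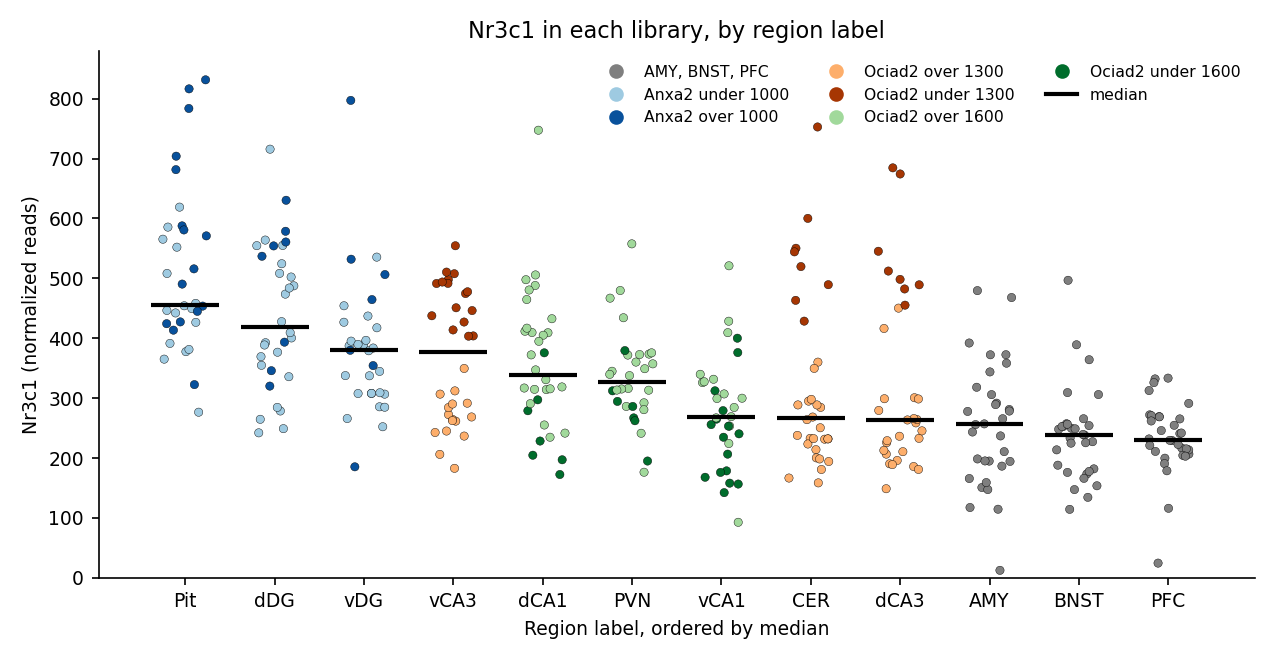
*Nr3c1* in each of the 380 libraries (points, in normalized reads) by region label, with the median of each label as a bar; colours mark the libraries labelled CER, dCA3 or vCA3 by *Ociad2* under or over 1300, those labelled dCA1, PVN or vCA1 by *Ociad2* under or over 1600 and those labelled Pit, dDG or vDG by *Anxa2* over or under 1000. Medians fall from 456 in Pit to 231 in PFC, in CER, dCA3 and vCA3 the dark points lie above all light points of the same label, and in dCA1, PVN and vCA1 dark and light points overlap.

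Each region was then compared with the mean of the other 11 regions, with the mouse as a block (limma, Benjamini-Hochberg adjustment over all genes and regions, threshold 0.1). *Nr3c1* differed in 8 of 12 regions, while 58.3% of all such comparisons over the 69 assays were called. It was higher in Pit by 0.74 on the log2 scale (SE 0.10, adjusted p = 2.17e-11), in dDG by 0.49 (SE 0.10, adjusted p = 7.19e-06), in vDG by 0.29 (SE 0.10, adjusted p = 0.0111) and in vCA3 by 0.20 (SE 0.10, adjusted p = 0.0811). The share of assays called higher was 56.5% in Pit, 55.1% in dDG, 47.8% in vDG and 20.3% in vCA3.

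*Nr3c1* was lower in PFC (log2 difference -0.53, SE 0.10, adjusted p = 1.32e-06), AMY (-0.50, SE 0.10, adjusted p = 4.15e-06), BNST (-0.49, SE 0.10, adjusted p = 1.03e-05) and vCA1 (-0.28, SE 0.10, adjusted p = 0.0118). Of all assays, 36.2% were called lower in PFC, 34.8% in AMY, 34.8% in BNST and 37.7% in vCA1. The differences in dCA1 (0.15), PVN (0.10), dCA3 (-0.07) and CER (-0.08) did not pass the threshold. Depth moved with part of this order, since the median library held 94437 reads in PFC, 99713 in BNST and 99571 in AMY, against 154777 in Pit and 151445 in dDG; its part in the result was not tested. Without the libraries under 50000 reads, the differences in Pit and PFC were 0.73 and -0.56.

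Between pairs of regions, *Nr3c1* differed in 43 of 66 comparisons, where 51.2% of the comparisons over all assays were called. Pit was above 10 of the 11 other regions and dDG above 9. Without the *Anxa2*-high libraries Pit was above 10 and dDG above 7. AMY, BNST and PFC were each below 8 regions and above none. Neighbours in the order of medians mostly did not differ beyond their spread. Of 11 neighbouring pairs, PVN was above vCA1 by 0.35 (95% interval 0.08 to 0.61, adjusted p = 0.0277) and dCA3 above AMY by 0.39 (0.13 to 0.66, adjusted p = 0.00944). With rescaled totals the difference of PVN from vCA1 was 0.18 (adjusted p = 0.348). Libraries with *Ociad2* under 1600 made up 7 of 30 in PVN and 16 of 32 in vCA1, and this difference did not pass the threshold without them (0.25, adjusted p = 0.261) or with only them kept in dCA1, PVN and vCA1 (0.31, adjusted p = 0.363). Without the *Ociad2*-low libraries of CER, dCA3 and vCA3 the difference of dCA3 from AMY was 0.11 (adjusted p = 0.558). The step from Pit to dDG was 0.22 with an interval of -0.04 to 0.49, and that from dDG to vDG 0.19 with an interval of -0.08 to 0.45.

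Of the dorsal and ventral parts of the hippocampus, those of CA1 differed. *Nr3c1* was higher in dCA1 than in vCA1 by 0.40 (95% interval 0.14 to 0.66, adjusted p = 0.00858), and by 0.24 (adjusted p = 0.196) with rescaled totals. Libraries with *Ociad2* under 1600 made up 7 of 32 in dCA1 and 16 of 32 in vCA1. The difference was 0.38 (0.03 to 0.72, adjusted p = 0.0713) without them and 0.07 (-0.45 to 0.59, adjusted p = 0.859) with only them kept. In CA3 the dorsal minus ventral difference was -0.25 (-0.51 to 0.01, adjusted p = 0.118). It was -0.13 without the *Ociad2*-low libraries, which made up 8 of 32 in dCA3 and 16 of 32 in vCA3, and 0.22 without the others.

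How far *Nr3c1* stood from the other assays depended on the region. When all libraries were rescaled to the same total over the assays, the median difference over all genes moved by more than 0.1 in 5 regions, by -0.17 in dCA1, -0.19 in PVN, -0.17 in BNST, 0.17 in CER and 0.16 in dCA3. Rescaling multiplies all assays of a library by the same factor. Differences of *Nr3c1* minus this median could therefore hardly move, and their agreement is no test. Read in that way, *Nr3c1* lay 0.46 above the median gene in dCA1 (0.45 after rescaling), 0.30 above it in Pit (0.30), 0.21 in dDG (0.23), 0.19 in vCA3 (0.19) and 0.18 in PVN (0.18). In vDG it was at -0.02 (-0.02), so that its difference there was that of the median gene. PFC, AMY and BNST were lowest with -0.39, -0.37 and -0.35 (-0.39, -0.37 and -0.37). Before this subtraction, the signs of the differences in dCA1, PVN, CER and dCA3 flipped under rescaling, and none of these passed the threshold under either scaling.

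The libraries with low *Ociad2* carried much of the spread in CER, dCA3 and vCA3. *Nr3c1* ranged from 403 to 753 with a median of 492 in the 32 *Ociad2*-low libraries and from 149 to 450 with a median of 245 in the 64 others, a ratio of medians of 2.00. In CER the medians were 532 and 233, in dCA3 505 and 235, and in vCA3 476 and 267. Within each of these labels every *Ociad2*-low library was above every other library (8 of 8, 8 of 8 and 16 of 16). Across the 3 labels, only 2 of the 64 other libraries reached the lowest *Ociad2*-low value.

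Read depth was similar in both sets. The *Ociad2*-low libraries had a median of 171454 reads, of which 900 were of *Nr3c1*, and the others 182324 reads with 356 of *Nr3c1*. Low *Ociad2* was found in 8 libraries of each label group. By mouse, 7 mice had no such library, 19 had 1, 5 had 2 and 1 had 3. After rescaling to the same total, the medians were 644 and 260. The split came from measured values, so no test was made between the sets.

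Region differences in *Nr3c1* followed these libraries. Without the *Ociad2*-low libraries, CER and dCA3 were lower than the other regions (-0.29, adjusted p = 0.0167, and -0.30, adjusted p = 0.0144; limma, Benjamini-Hochberg), and vCA3 turned to -0.16 (adjusted p = 0.303). With only the *Ociad2*-low libraries kept in these labels, the differences were 0.62 in CER (adjusted p = 0.00396), 0.69 in dCA3 (adjusted p = 0.00112) and 0.45 in vCA3 (adjusted p = 0.00298). Both sets thus moved all 3 labels, in opposite directions. In Pit and PFC the differences were 0.82 and -0.44 without the *Ociad2*-low libraries and 0.54 and -0.72 without the others.

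**Figure D2:**
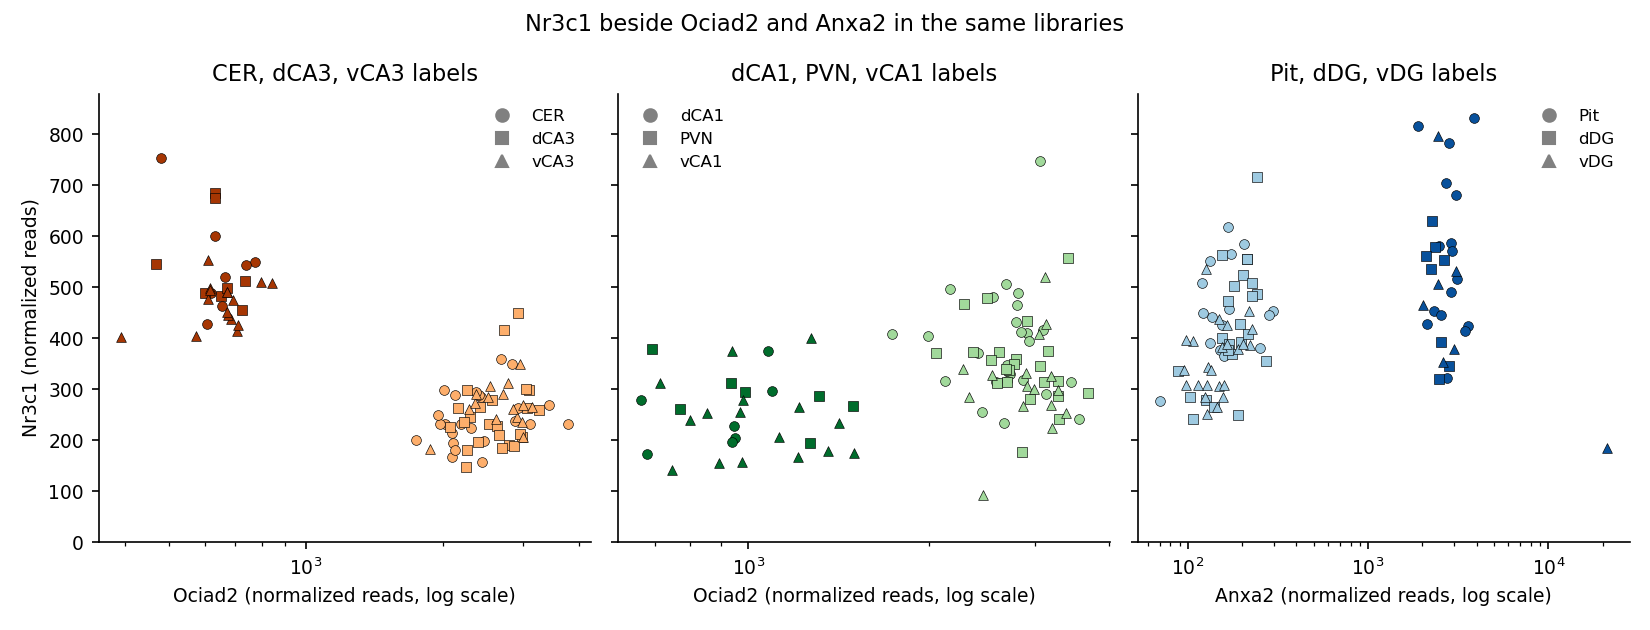
*Nr3c1* (normalized reads) against *Ociad2* in the 96 libraries labelled CER, dCA3 or vCA3 (left) and in the 94 labelled dCA1, PVN or vCA1 (middle), and against *Anxa2* in the 95 libraries labelled Pit, dDG or vDG (right), with horizontal axes on a log scale and symbols for the labels. On the left the *Ociad2*-low libraries lie between 403 and 753 and the others between 149 and 450. In the middle and on the right the sets overlap, with medians of 255 and 339 for *Ociad2* under and over 1600 and of 516 and 392 for high and low *Anxa2*.

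In dCA1, PVN and vCA1 the medians of *Nr3c1* were lower in the libraries with less *Ociad2*, and in PVN this turned under rescaling. *Nr3c1* ranged from 142 to 400 with a median of 255 in the 30 libraries under 1600 and from 92.7 to 747 with a median of 339 in the 64 over 1600. The medians were 228 and 395 in dCA1, 286 and 345 in PVN, and 238 and 303 in vCA1. In dCA1, 4 of the 7 libraries under 1600 were below every one of the 25 others, whose lowest value was 235, and 3 lay within their values. In PVN all 7 lay within the values of the others. So did all 16 in vCA1, where 7 of them were below every other library except that with 92.7 normalized reads (10 reads of *Nr3c1* among 12898). The libraries under 1600 were shallower, with a median of 94979 reads against 126911, and after rescaling to the same total the medians were 243 and 306 in dCA1, 253 and 298 in vCA1, and 299 and 285 in PVN. The part of depth was not tested. Each label group held 7 or 8 of the 30.

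Without the libraries under 1600, the difference in dCA1 from the other regions was 0.27 (adjusted p = 0.0383; limma, Benjamini-Hochberg), that in vCA1 was -0.14 (adjusted p = 0.39) and that in PVN 0.13 (adjusted p = 0.363). The call in vCA3 was lost as well (0.17, adjusted p = 0.155), while Pit (0.70) and PFC (-0.56) stayed past the threshold. With only the libraries under 1600 kept in these labels, the differences were -0.29 in dCA1 (adjusted p = 0.28), -0.04 in PVN (adjusted p = 0.905) and -0.38 in vCA1 (adjusted p = 0.0271).

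*Anxa2* separated *Nr3c1* less than *Ociad2* did in CER, dCA3 and vCA3. In the 31 *Anxa2*-high libraries *Nr3c1* ranged from 185 to 831 with a median of 516, and in the 64 *Anxa2*-low libraries from 242 to 716 with a median of 392, a ratio of medians of 1.32. Of the *Anxa2*-high libraries, 26 of 31 fell within the values of the *Anxa2*-low ones. The medians were 543 and 448 in Pit, 546 and 405 in dDG, and 465 and 362 in vDG. The lowest *Anxa2*-high value, 185 in vDG, came from the library with the highest *Anxa2* of all, 21258.

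Without the *Anxa2*-high libraries, *Nr3c1* remained higher in Pit (0.62, adjusted p = 7.94e-05) and dDG (0.47, adjusted p = 0.000306; limma, Benjamini-Hochberg). In vDG the difference of 0.21 no longer passed the threshold (adjusted p = 0.12). The *Anxa2*-high libraries had a median of 155534 reads and the *Anxa2*-low ones 147098. By mouse, 9 mice had no *Anxa2*-high library, 16 had 1, 6 had 2 and 1 had 3.

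The study asked whether experience early and late in life changes expression in these regions, and the label groups were compared within each region on that account. *Nr3c1* differed by label status in 0 of 12 regions, by label injection in 0 of 12 and by their interaction in 0 of 12 (limma, Benjamini-Hochberg over the genes of a region, threshold 0.1). Over all assays and regions, 0% of the status comparisons, 0.121% of the injection comparisons and 0% of the interactions were called. At an unadjusted p under 0.05, *Nr3c1* was counted in 0 regions for status, 0 for injection and 1 for the interaction, against 2.66%, 3.75% and 2.3% of all comparisons. In 12 of 12 regions the values of the label groups overlapped.

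Group medians of *Nr3c1* lay close together in each region. The ratio of the highest to the lowest of the 4 medians ran from 1.04 in vCA3 to 1.34 in vCA1. Co naive had the highest median in 4 regions, Co inject in 3, MS naive in 3 and MS inject in 2. No label group led throughout. In PVN, Co naive ranged from 195 to 480 (median 316), Co inject from 267 to 467 (353), MS naive from 176 to 379 (338) and MS inject from 281 to 558 (314). In vCA1 the medians were 308 in Co naive, 229 in Co inject, 261 in MS naive and 291 in MS inject.

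**Figure D3:**
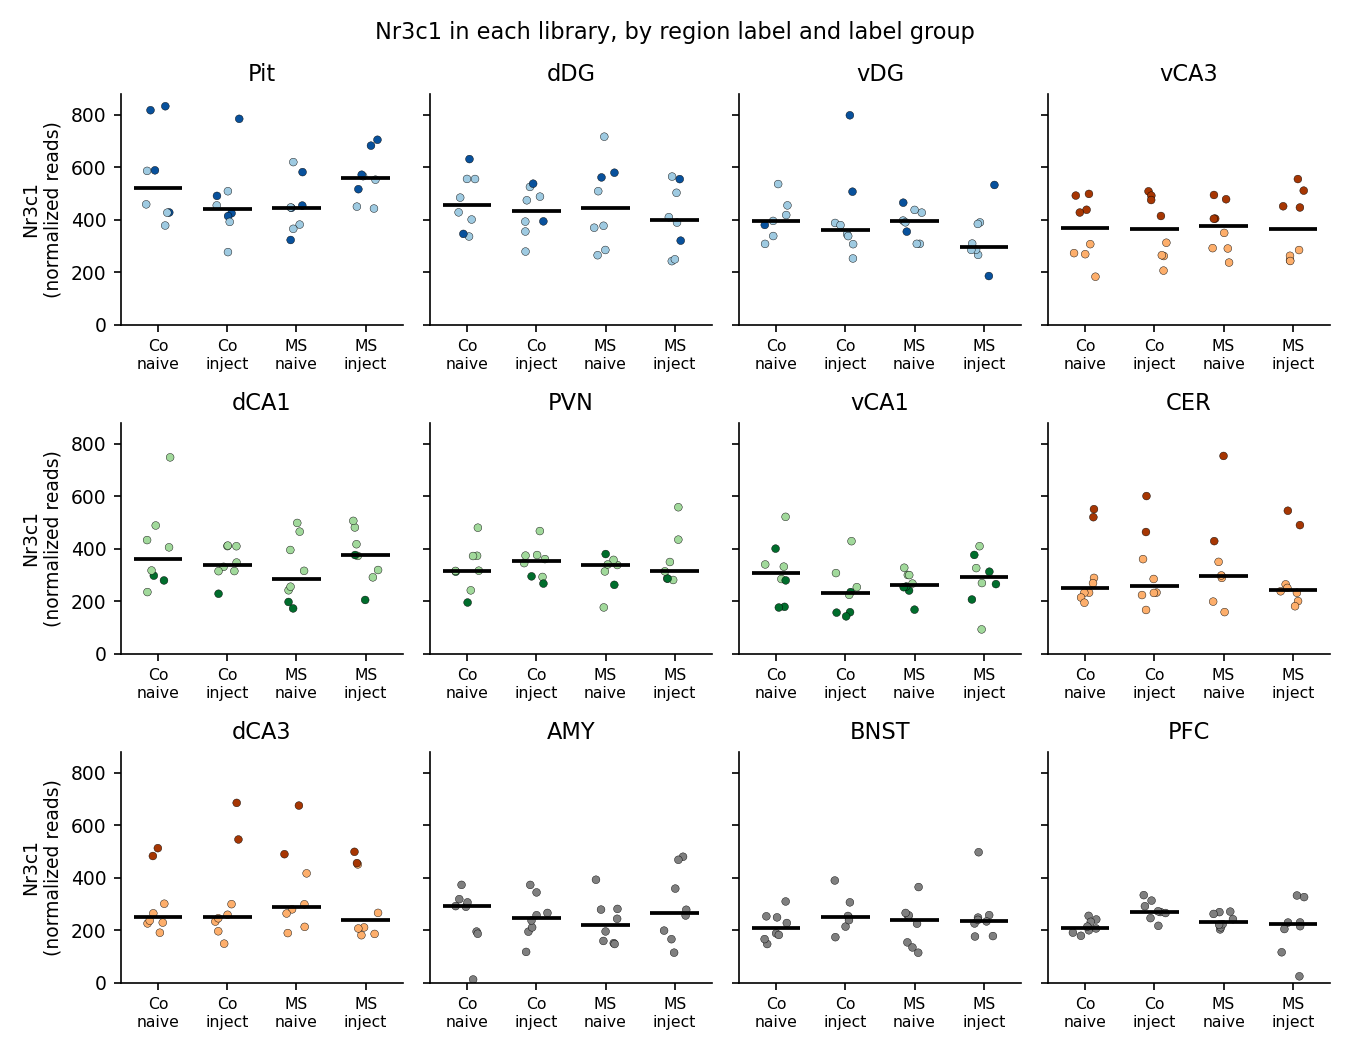
*Nr3c1* in each library (points, in normalized reads) by label group, with 1 panel for each region label, the group median as a bar and the same colours for the *Ociad2* and *Anxa2* ranges as in the plot by region. Groups overlap in all 12 panels, and *Ociad2*-low libraries are spread over all 4 groups.

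The log2 difference of MS from Co ran from -0.26 in PFC to 0.18 in AMY, with 6 regions up and 6 down. That of inject from naive ran from -0.20 in vCA1 to 0.30 in AMY, again with 6 up and 6 down. The intervals show what size these data could have missed. For status, the 95% interval was -0.27 to 0.28 in Pit and -0.48 to 0.85 in AMY, the widest. The AMY estimates rested on 1 Co naive library with 12.5 normalized reads (7 reads of *Nr3c1* among 82790), and without it they were -0.09 for status and 0.03 for injection. The status difference in PFC was -0.07 without the library with the fewest normalized reads there (24.6), an MS inject library. The injection difference in vCA1 was -0.10 without the libraries under 50000 reads. In vDG the injection difference was -0.15, and -0.26 (adjusted p = 0.235) without the *Anxa2*-high libraries; in Pit the status difference was 0.0024 with them and 0.14 without.

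Interactions ran from -0.82 in PFC to 0.59 in Pit. That in AMY was -0.09, and 0.46 (SE 0.39, adjusted p = 0.905) without the Co naive library with 12.5 normalized reads. In PFC the effect of inject differed between MS and Co by -0.82 (95% interval -1.72 to 0.07, adjusted p = 0.973), with medians of 210 in Co naive, 271 in Co inject, 232 in MS naive and 222 in MS inject. This value was -0.43 (adjusted p = 0.94) without that MS inject library, which held 12 reads of *Nr3c1* among 59297. In Pit the interaction was 0.59 (95% interval 0.04 to 1.14, unadjusted p = 0.0362, adjusted p = 0.703; limma). The Pit medians were 522 in Co naive (378 to 831), 439 in Co inject (277 to 784), 446 in MS naive (323 to 619) and 559 in MS inject (442 to 704). With 5 principal components as covariates the same difference had an adjusted p of 0.0157, and with the *Anxa2* range as a covariate 0.349. The components were taken from the residuals of this fit, with *Nr3c1* among the assays. They cannot change the difference and only narrow its error, so the adjusted p of 0.0157 is likely too low. Without the *Anxa2*-high libraries it was 0.37 (SE 0.33, adjusted p = 0.978).

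**Figure D4:**
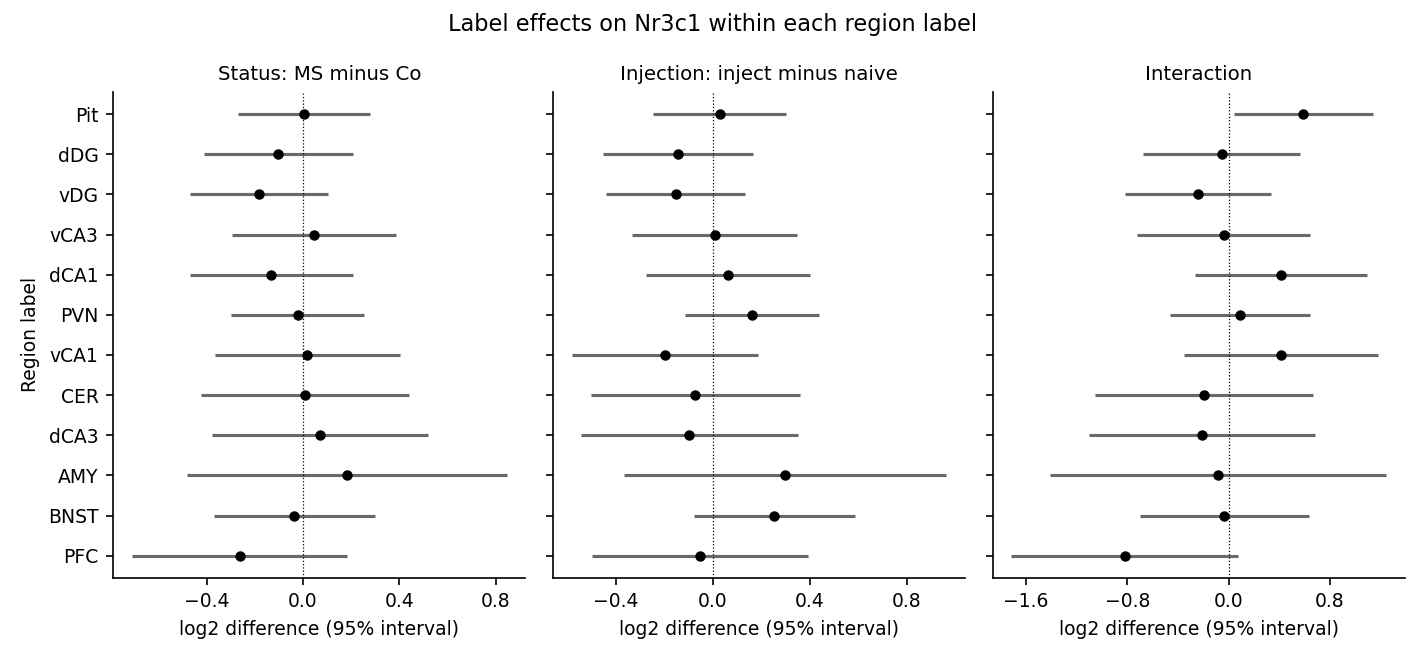
Log2 differences of *Nr3c1* by label status, by label injection and by their interaction in each region label (points) with 95% intervals (lines); the horizontal scales differ between panels. All status and injection intervals include 0, and of the interactions the interval in Pit does not (0.04 to 1.14).

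Averaging over regions did not bring out a difference. In means of each mouse over its regions, taken after the region mean had been subtracted, *Nr3c1* ran from -0.43 to 0.36 around 0 (n = 32 mice). The lowest mean was that of the mouse with the AMY library at 12.5 normalized reads, and without this library the means ran from -0.29 to 0.35. The difference of MS from Co was -0.03 (95% interval -0.15 to 0.09, adjusted p = 0.976) and that of inject from naive 0.01 (-0.11 to 0.13, adjusted p = 0.981). Without that library these were -0.05 (adjusted p = 0.98) and -0.01 (adjusted p = 0.998). The background was 0% and 1.45% of assays called. Nor was a difference of the label effects between regions called (limma F tests with the mouse as a block, unadjusted p = 0.952 for status, 0.731 for injection and 0.512 for the interaction), with 0% of assays called for each.

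The *Ociad2* range as a covariate narrowed the label effects in its 3 labels. In CER the standard error of the status difference fell from 0.21 to 0.11 with the *Ociad2* range as a covariate, and in vCA3 from 0.17 to 0.07. The differences stayed small, with 0.01 in CER, 0.07 in dCA3 and 0.05 in vCA3 for status. With *Ociad2* under or over 1600 as a covariate, the status differences were -0.09 in dCA1, -0.03 in PVN and 0.02 in vCA1, and no label effect on *Nr3c1* in these labels passed the threshold. Libraries of a range were also pooled over their labels and averaged by mouse after the region mean had been subtracted, since a mouse could give several of them. In the *Ociad2*-low libraries (n = 25 mice), the 95% intervals were -0.16 to 0.16 for status and -0.16 to 0.16 for injection. In the *Anxa2*-low libraries (n = 31 mice) the injection difference was -0.12 (-0.28 to 0.03, adjusted p = 0.674), where 8.7% of all assays were called for the same term. The *Anxa2*-high libraries (n = 23 mice) gave wider intervals, with -0.39 to 0.22 for status.

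Region accounted for 31.3% of the variance of log2 *Nr3c1*, and the *Ociad2* and *Anxa2* ranges within regions for a further 17.2%. The mouse took 4.21% and the label group within a region 4.34%, which left 43.0% between libraries. The medians over all 69 assays were 22.5%, 10.6%, 5.29%, 4.82% and 52.1%, respectively. The shares were taken in this order, and each mouse had the same label group in all regions. A label difference common to all regions is therefore counted under the mouse, and 4.34% is what the label groups added after it. The shares were not corrected for the number of mice or groups, so part of each would arise without any effect. The coefficient of variation of *Nr3c1* within a region label was between 23.8% in PVN and 46.0% in dCA3. Within the *Ociad2*-low libraries of CER, dCA3 or vCA3 it was between 9.28% and 18.4%, within the *Ociad2*-high ones between 15.2% and 28.0%, within the *Anxa2*-low ones between 18.8% and 28.0% and within the *Anxa2*-high ones between 24.1% and 41.1%.

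Among the other assays, *Cd47*, whose product on the cell surface restrains engulfment by phagocytes, was most like *Nr3c1*. Over the 12 region medians its Spearman's rho with *Nr3c1* was 0.79, and over the 380 libraries, after the mean of each region and label group had been removed, Pearson's r was 0.42 (0.29 with the ranges removed as well). The next by region medians were *Lrrc25* (0.77), *Fan1*, *Lcn2* and *Zfp553* (0.75 each), whose values were at 0 in 194, 129, 167 and 137 libraries. These are descriptions over libraries that share mice and size factors. At the opposite end of the region order stood *Slco3a1*, a transporter of organic anions (-0.80), *Tm2d1* (-0.74) and *Rps25*, a ribosomal protein gene (-0.69). Over libraries, *St6galnac4* (0.29) and *AW209491* (0.27) came next after *Cd47*, while the actin-bundling *Fscn1* (-0.40), the proteasome subunit *Psmb3* (-0.29) and *Hsp90aa1* (-0.28) were lowest. With the ranges removed as well, these values were 0.05 for *St6galnac4*, 0.26 for *AW209491*, -0.33 for *Fscn1*, -0.27 for *Psmb3* and -0.20 for *Hsp90aa1*.

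Of a list of 44 genes of glucocorticoid signalling, 10 had an assay, *Nr3c1* among them. The other 9 were the chaperone genes *Hsp90aa1* and *Cct7*, the co-chaperone gene *Fkbp5*, *Prmt5* (an arginine methyltransferase), *Ube2g2* (a ubiquitin-conjugating enzyme), *Akt1*, *Ctnnb1* (beta-catenin), CDKN1A and TNF. The regional pattern of *Nr3c1* was not shared by all of them. *Hsp90aa1*, whose product holds the receptor ready for ligand, was called higher in 6 regions and lower in 5, against the same 58.3% over all assays; it was lower in Pit (-0.71) and dDG (-0.73) and higher in vCA1 (0.54) and BNST (0.49). *Cct7* was higher in 5 regions and lower in 4.

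*Fkbp5*, which dampens the affinity of the receptor for its ligand, was higher in the same 3 labels that led for *Nr3c1*, by 2.39 in Pit (SE 0.35), 1.97 in vDG (SE 0.35) and 1.94 in dDG (SE 0.35), with adjusted p of 4.24e-10, 4.15e-07 and 4.15e-07. It was called lower in AMY (-1.08), BNST (-0.84), PFC (-1.12) and vCA1 (-0.89), where *Nr3c1* was lower as well, and in vCA3 (-0.82), where *Nr3c1* was higher. Many assays shared these directions, with 56.5% of all assays called higher in Pit, 47.8% in vDG and 55.1% in dDG. Called lower were 34.8% in AMY, 34.8% in BNST, 36.2% in PFC and 37.7% in vCA1. Over all 12 region medians the rho of *Fkbp5* with *Nr3c1* was 0.27. By range, *Fkbp5* had a median of 12.2 normalized reads in *Ociad2*-low and 79.4 in *Ociad2*-high libraries, the reverse of *Nr3c1*. It had 375 in *Anxa2*-high and 157 in *Anxa2*-low libraries, in the direction of *Nr3c1*. *Fkbp5* was at 0 in 26 libraries.

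*Akt1* and *Ube2g2* followed the order of *Nr3c1* more closely, with a rho of 0.70 and 0.75. *Akt1*, a kinase, was called higher in 5 regions and lower in 6, and *Ube2g2* higher in 3 and lower in 6. Both differed in Pit, by 0.62 and 0.91, and in AMY, by -0.46 and -0.60. Both were called lower in dCA1 (-0.45 and -0.54) and PVN (-0.24 and -0.27), where *Nr3c1* was higher without passing the threshold. By range, their medians ran against *Nr3c1*. *Akt1* had 1880 in *Ociad2*-low and 2046 in *Ociad2*-high libraries, and 2152 in *Anxa2*-high and 2955 in *Anxa2*-low ones. For *Ube2g2* these were 287 and 388, and 564 and 596. *Prmt5* (2 higher, 1 lower), *Ctnnb1* (3 and 2) and CDKN1A (2 and 1) differed in fewer regions. TNF was at 0 in 320 of 380 libraries.

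Across libraries of the same region label and range, *Nr3c1* was set against those 7 signalling genes whose median reached 50, in 21 sets of libraries, which gave 147 correlations (permutation tests with 100000 resamples, exact under 10 libraries). Of these, 12 had an adjusted p under 0.1 by Pearson's r and 4 by both coefficients. At an unadjusted p under 0.05 there were 27 of 147, while 18.4% of the 1092 correlations over all 52 assays with such a median reached it, so that the share of the signalling genes was near that of the other assays. When the adjustment was made over all 1092, 0.733% passed, 2 of them with signalling genes. With libraries rescaled to the same total, 48 of the 147 passed by Pearson's r, so the count depends on the scaling. *Akt1* had a positive r in 17 of 21 sets (median 0.34) and *Ctnnb1* in 18 of 21 (median 0.28). *Cct7* was positive in 3 of 21 (median -0.33) and *Hsp90aa1* in 5 of 21 (median -0.33). No count of signs over the other assays is set beside these.

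The adjusted p given for single correlations are those over the 147, and none of these is shown to be particular to the signalling genes. The *Anxa2*-low libraries of dDG (n = 24) held 3 of the 4 that passed by both coefficients. *Nr3c1* rose with *Akt1* there (r = 0.72, rho = 0.76, permutation p = 0.00012 and 5e-05, adjusted p = 0.0176 and 0.00735). It fell with *Fkbp5* (r = -0.66, rho = -0.62, permutation p = 0.0004 and 0.0016, adjusted p = 0.0294 and 0.087) and with *Hsp90aa1* (r = -0.58, rho = -0.59, permutation p = 0.00263 and 0.00296, adjusted p = 0.0642 and 0.087). Without the 2 libraries farthest from the median of the other gene, r was 0.72 for *Akt1*, -0.53 for *Fkbp5* and -0.42 for *Hsp90aa1*.

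In the 8 *Ociad2*-low libraries of CER, *Nr3c1* rose with *Akt1* as well (r = 0.88, rho = 0.93, exact permutation p = 0.00201 and 0.00223, adjusted p = 0.0642 and 0.087), and r was 0.95 without the 2 farthest. In dCA1 the r with *Akt1* was 0.50 in the 25 libraries over 1600 (permutation p = 0.0108, adjusted p = 0.114) and -0.32 in the 7 under 1600 (exact permutation p = 0.48, adjusted p = 0.692), and neither passed the threshold. With *Ctnnb1*, 3 sets passed by Pearson's r, while rho was of similar size with an adjusted p just over 0.1. These were the 16 *Anxa2*-high libraries of Pit (r = 0.68, rho = 0.68, permutation p = 0.00362 and 0.00542, adjusted p = 0.0642 and 0.114), the 16 *Anxa2*-low ones (r = 0.71, rho = 0.64, permutation p = 0.00162 and 0.00976, adjusted p = 0.0642 and 0.12) and the 24 *Ociad2*-high libraries of dCA3 (r = 0.56, rho = 0.53, permutation p = 0.00506 and 0.0097, adjusted p = 0.074 and 0.12). Without the 2 farthest libraries, r was 0.54, 0.49 and 0.57, respectively. In AMY the r of 0.56 with *Akt1* fell to 0.16 without the 2 farthest libraries, so it rests on them. The remaining calls by Pearson's r were *Fkbp5* in the 8 *Ociad2*-low libraries of dCA3 (-0.92) and *Akt1* in the *Anxa2*-low ones of Pit (0.66). *Cct7* was called in the *Anxa2*-high libraries of Pit (-0.63) and the *Anxa2*-low ones of dDG (-0.57). Without the 2 farthest libraries, r was -0.58, 0.36, -0.56 and -0.59, respectively. A difference of these correlations between regions was not tested.

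**Figure D5:**
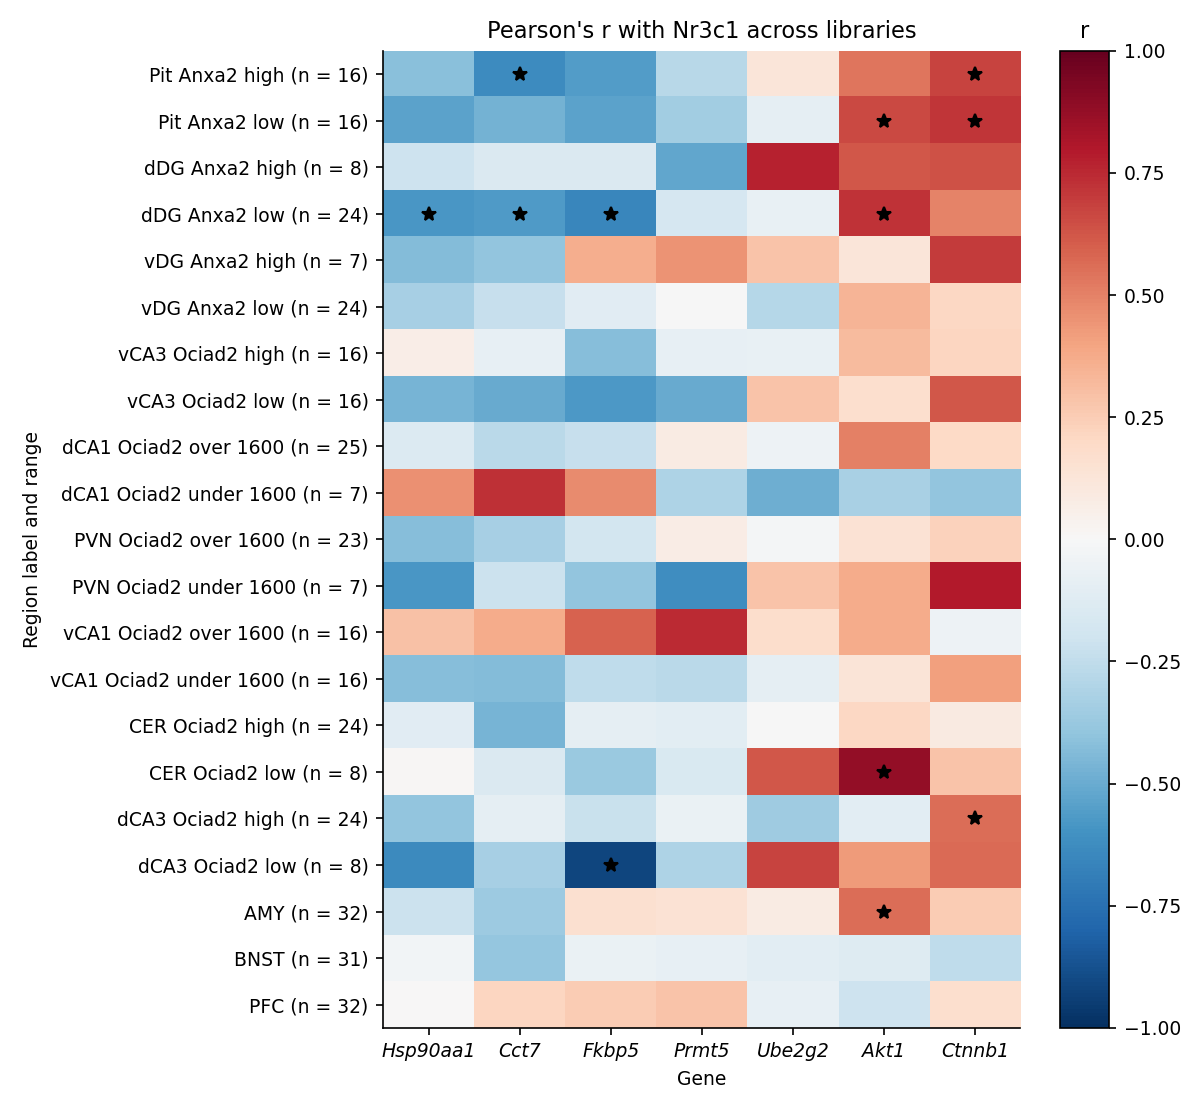
Pearson's r of *Nr3c1* with 7 signalling genes (columns) in 21 sets of libraries of the same region label and *Ociad2* or *Anxa2* range (rows, with the number of libraries); the colour gives r from -1 to 1, and stars mark the 12 combinations with an adjusted p under 0.1 by Pearson's r. The columns of *Akt1* and *Ctnnb1* are mostly positive and those of *Hsp90aa1* and *Cct7* mostly negative.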

How the data were processed

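The deposited unit is a signal: per assay, the authors divided the reads by the library's DESeq2 size factor, after removal of low-quality reads (PRINSEQ), a quality check (FastQC) and alignment with BWA to the manifest of the assays. The submitters' processing notes name mm10. In each library the values were whole multiples of 1 step (100% of 26220 values within 0.01 reads), from which reads per library were recovered for depth. PCR reads are not independent molecules.

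Values were transformed to log2(value + 1) without a filter, so that differences of low values are understated. limma 3.58.1 (R 4.3.3) was used for all fits across the 69 assays, with Benjamini-Hochberg adjustment and a threshold of 0.1. Regions were compared with the mouse as a fixed block, since each mouse gave every region. Deviations of libraries of 1 mouse were hardly related otherwise (median r = 0.00528 over 2068 pairs, against -0.000456 between mice). Within a region, status, injection and their interaction were fitted. The fits were tested on simulated data. Permutations of correlations used scipy 1.17.1 (Python 3.11.15). *Nr3c1*, the signalling list, the marker genes, *Anxa2* and *Ociad2* were named by rule, as were the 5 genes most and the 3 least like *Nr3c1* over region medians and the 3 at each end over libraries; all were chosen with earlier results of these data known. Groups came from the labels, and 4 samples had no values. As alternatives, pseudocounts of 0.1 and 10 were tried, as were a minimum mean of 10 per gene, rescaled totals, a threshold of 0.05, 5 principal components, range covariates, fits without certain libraries and fits without the block.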

Additional observations from a re-analysis of the deposited data

Results flagged for a closer look

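In 4 of the 48 groups of a region and a label group, the highest library stood far from the others for *Nr3c1* by Dixon's test at the 95% level, which chance alone would give in about 1 in 20 groups. In CER, the MS naive library of mouse 103 had 753 normalized reads, while the 7 others had 159 to 429. It was an *Ociad2*-low library with 908 reads of *Nr3c1* among 118572. In Pit, the Co inject library of mouse 243 had 784, with the others at 277 to 508. In vDG, the Co inject library of mouse 235 had 797, with the others at 252 to 506. Both were *Anxa2*-high libraries, with 761 and 1009 reads of *Nr3c1*. In BNST, the MS inject library of mouse 95 had 497, with the others at 176 to 257, and it held 141 reads of *Nr3c1* among 47577. Causes were not tested.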

How the results depend on the processing

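Over 60 results and 610 alternative values, 594 were counted as the same. For differences this means the same direction and side of the threshold, apart from 28 that changed sign without passing it in either fit. For F tests it means the side alone, and for counts a value of similar size. Label effects within regions made up 357 of the 610, and 1 of these passed the threshold. Elsewhere, 5 calls were lost, 8 values were stronger (calls gained or counts raised) and 3 results reversed. The *Ociad2* alternatives, the *Ociad2* covariates, the fits without the lowest AMY or PFC library, and the fits within a range were chosen after seeing the data. Without *Ociad2*-low libraries, *Nr3c1* in CER (-0.29), dCA3 (-0.30), dCA1 (0.24) and PVN (0.19) passed the threshold, and vCA3 reversed to -0.16. Without the libraries of dCA1, PVN and vCA1 with *Ociad2* under 1600, dCA1 (0.27) passed and the calls in vCA1 (-0.14) and vCA3 (0.17) were lost. Without *Ociad2*-high libraries, CER (0.62) and dCA3 (0.69) reversed and vDG (0.10) lost its call. The vDG call was also lost without *Anxa2*-high libraries (0.21), and the vCA3 call (0.20) at a threshold of 0.05. With 5 principal components, the interaction in Pit (0.59) passed, which made 1 region in place of 0. Those components came from the residuals of the fit itself, *Nr3c1* included, so this call is no independent support. Rescaled totals gave 48 correlations in place of 12, and 15 were called with dCA1, PVN and vCA1 not split by *Ociad2*. The causes were not tested. The counts of regions and of pairs called ran from 7 to 11 and from 37 to 46, and were 8 and 43 with no replicate block; the mouse as a replicate block changed no call of a region. The planned edgeR and DESeq2 tests on recovered reads were not run. Depth limits the libraries with few reads of *Nr3c1*, of which 5 had under 50.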
